A study of Arabidopsis thaliana with 3 samples.

Results

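The Aux/IAA and ARF families form the transcriptional core of auxin response, and their 44 listed genes were compared between Arabidopsis thaliana seedlings that carry 35S:AtIBH1-SRDX and wild-type seedlings. The list holds 29 Aux/IAA genes (IAA1 to IAA20 and IAA26 to IAA34) and 15 ARF genes (ARF1 to ARF11 and ARF16 to ARF19). They were found by locus identifier among the 25665 loci with a probe. All 44 had a probe, 46 probes in all, and all 44 passed the filter on dim probes (a genotype well above background on each of the 3 arrays), as did 19922 loci in total. IAA6 and IAA34 passed through wild type alone and IAA15 through IBH1-SRDX alone, in each case the genotype where the gene is brighter, so that these 3 had no value when both genotypes had to pass.

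The transgenic seedlings express, from the 35S promoter, IBH1 fused to the short repression domain SRDX. IBH1 is an atypical bHLH protein that restrains the elongation of cells, and 35S is a viral promoter active in most tissues. Both genotypes were of Col-0 background and were sampled whole at 10 days of age, after growth on agar with 1% sucrose at 23 °C in days of 16 h light and 8 h dark. RNA of both was hybridised together on 3 Agilent 2-colour arrays, 1 for each biological replicate, with IBH1-SRDX in Cy3 on arrays 1 and 3 and in Cy5 on array 2. The number of transgenic lines and of seedlings per sample is not given in the sources used.

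Aux/IAA proteins bind ARF transcription factors and bring the co-repressor TOPLESS (TPL) to ARF target genes. Auxin joins Aux/IAA proteins to the receptors TIR1 and AFB through a short degron, the Aux/IAA proteins are degraded, and the ARFs are released. Many Aux/IAA genes are themselves induced by auxin within minutes, which makes them part of the early response as well as its brake. In the hypocotyl of Arabidopsis, ARF6 acts together with the brassinosteroid factor BZR1 and the phytochrome-interacting factor PIF4, and IAA19 is among their shared targets.

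The share of spots well above background ran from 58.8% to 63.5% over the channels and 0 were saturated, and the number of arrays limits the precision. Unless an intensity is named, a value is a log2 ratio (IBH1-SRDX over wild type), and a mean ± SE is that of limma over 3 arrays. A gene was called at an adjusted p below 0.05 (limma, Benjamini-Hochberg over 19922 loci). IBH1's own probe, whose position within the gene was not analysed here, read lower in the library labelled IBH1-SRDX (-0.88, -0.60 and -0.67 on arrays 1, 2 and 3). The probe of SUP, whose repression motif was the model for SRDX, was higher there (8.06, 8.42 and 7.87), and every direction below rests on the labels. Markers of root (8 of 11 called), xylem (8 of 8) and leaf photosynthesis (5 of 8) were detected in wild type. They were lower in IBH1-SRDX where called, beside 19.8% of all tested loci called lower. In limma 0 were called higher (0, 0 and 1 higher at an unadjusted p below 0.05), beside 18.5% of all tested loci. The leaf marker LHCB3 was above 0 on every array (0.23, 0.05 and 0.55), and LHCB2.1 had a mean of 0.05. The markers' summed normalised intensities were 28430 to 40567 in IBH1-SRDX against 53366 to 59756 in wild type for root. Most of the root sum came from the phosphate transporter gene PHT1;1. Without PHT1;1 and the nitrate transporter gene NRT2.1, the other 9 root markers summed to 7838 to 9515 in IBH1-SRDX against 12975 to 13209 in wild type. For xylem they were 9452 to 9781 in IBH1-SRDX against 15149 to 15970 in wild type. For the 7 leaf markers measured on all arrays they were 191565 to 214606 in IBH1-SRDX against 347453 to 395087 in wild type. On no array was the root marker CASP5 well above background in IBH1-SRDX. The part of these tissues in the results below was not tested, and in whole seedlings fewer cells of a type and less RNA per cell cannot be told apart.

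Aux/IAA transcripts were lower more often than higher in IBH1-SRDX. Of the 29 genes, 13 were called lower, 3 higher and 13 were not called, which is 44.8% lower and 10.3% higher. Over all tested loci 19.8% were called lower and 18.5% higher, or 38.3% in either direction. The balance was steeper for large changes, since 6 Aux/IAA genes (20.7%) were at least 2-fold lower, against 2.13% of all tested loci. These were IAA3, IAA5, IAA19, IAA7, IAA6 and IAA29, and IAA15 was the only Aux/IAA gene at least 2-fold higher, against 3.08% of all tested loci. The limma means of the other genes lay between -0.85 and 0.51, as the bars in the plot of Aux/IAA ratios by array show. Where both genotypes had to be above background, 26 Aux/IAA genes were tested, with 12 called lower and 2 higher. IAA6 and IAA15 had no value there, so the 2-fold shares above rest partly on genes that passed through 1 genotype alone. Of all loci in that fit 20.1% were called lower and 18.4% higher. When arrays were centred on their median and loess was left out, the calls of the 7 genes past 2-fold held and those of the other Aux/IAA genes ended. In that fit genes on 3 arrays shared a common SE (0.32), so a call followed from the size of the ratio alone.

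**Figure D1:**
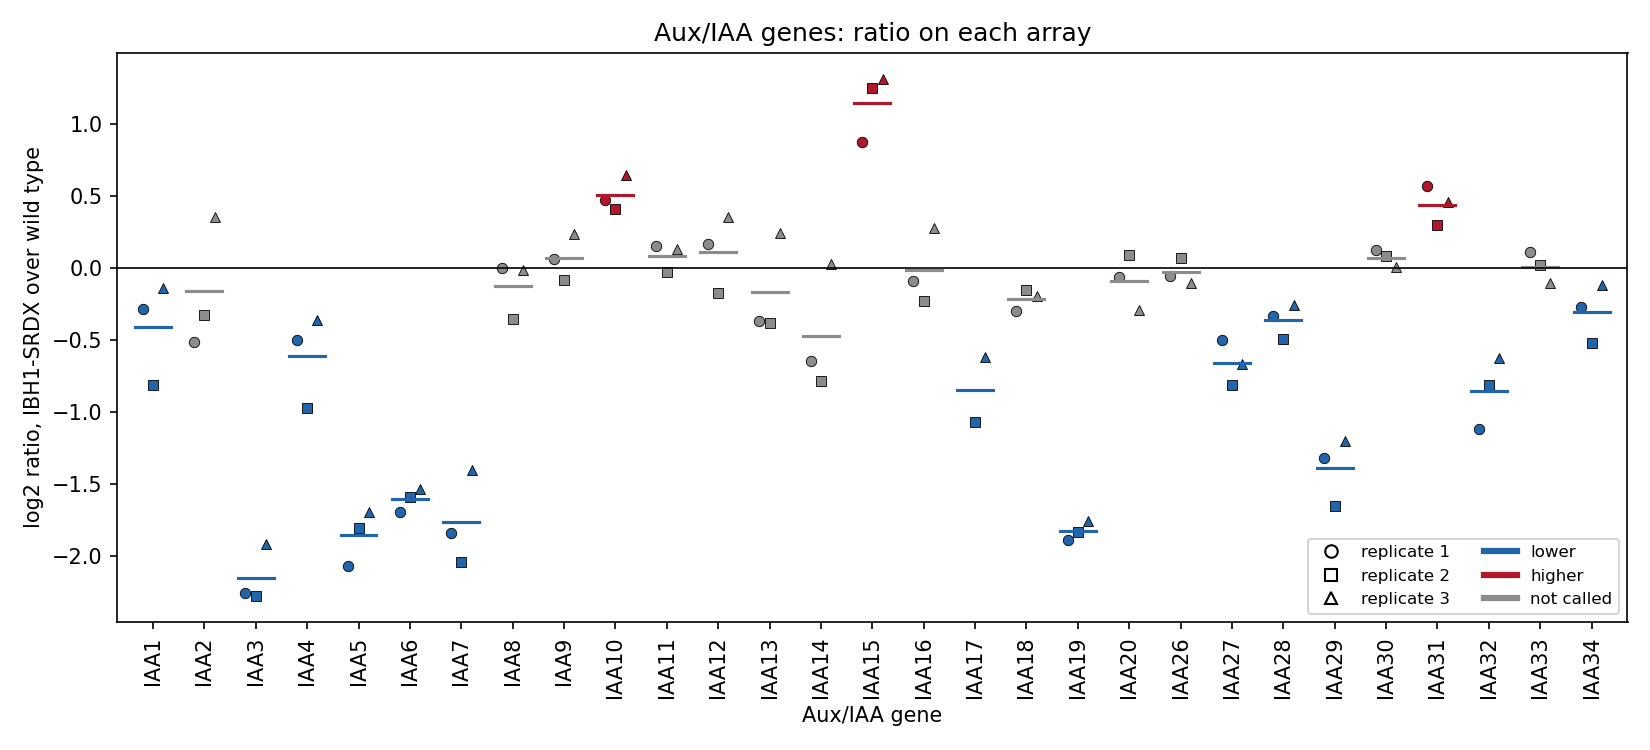
Log2 ratio of IBH1-SRDX over wild type (y axis) for each of the 29 Aux/IAA genes (x axis), with 1 marker for each array, a bar at the limma mean and colour for the call (lower, higher or not called at an adjusted p below 0.05). IAA3, IAA5, IAA6, IAA7, IAA19 and IAA29 lie below -1 on every array, IAA15 is the highest gene, and IAA17 has no value on array 1.

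IAA3 (AT1G04240), known as SHY2, represses growth responses to light and auxin and limits the size of the root meristem. Its normalised log2 intensity was 9.58, 9.52 and 9.91 in IBH1-SRDX on arrays 1, 2 and 3, against 11.83, 11.79 and 11.83 in wild type. IAA3 is detailed for its low ratio, so the gap between its genotypes is no further support. The wild-type values were nearly equal while array 3 held the highest IBH1-SRDX value. The ratio of -2.15 ± 0.10 (4.44-fold lower, adjusted p = 3.77e-05) was the 40th lowest of the 19922 loci.

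IAA5, IAA6 and IAA19 form 1 clade, of which IAA19 (MSG2) acts with ARF7 in the bending of the hypocotyl toward light. All 3 fell. IAA5 (AT1G15580) had log2 intensities of 7.45, 7.72 and 7.72 in IBH1-SRDX, against 9.52, 9.53 and 9.41 in wild type. Its ratio was -1.85 ± 0.10 (3.62-fold lower, adjusted p = 5.27e-05). The size depended on the processing, with -2.43 by the Feature Extraction log ratio, -2.56 by the deposited series table and -1.31 with outlier local backgrounds kept. For IAA19 (AT3G15540) the intensities were 8.59, 8.65 and 8.80 in IBH1-SRDX, against 10.49, 10.48 and 10.56 in wild type. Its ratio was -1.83 ± 0.08 (3.55-fold lower, adjusted p = 3.22e-05), with a spread of only 0.07 (SD, n = 3) between the arrays. IAA6 (AT1G52830) had 6.48, 6.35 and 6.69 in IBH1-SRDX, where 2 of 3 arrays were well above background, against 8.17, 7.94 and 8.22 in wild type. No value of 1 genotype reached into the range of the other in IAA5 and IAA19. Both are detailed here for their low ratios, so that gap is no further support. IAA6 passed the filter through wild type alone, so the same gap is no further support there either. The ratio of IAA6 was -1.61 ± 0.08 (adjusted p = 4.44e-05), with 1 IBH1-SRDX value at background, but -3.46 by the Feature Extraction log ratio, -3.60 by the deposited series table and -1.04 with outlier local backgrounds kept, where the call ended.

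The clade of IAA7 (AXR2), IAA14 (SLR), IAA16 and IAA17 (AXR3) holds genes whose stabilised mutants in Arabidopsis have strong auxin resistance, and its members differed widely. IAA7 (AT3G23050) had log2 intensities of 10.67, 10.71 and 11.12 in IBH1-SRDX, against 12.52, 12.76 and 12.52 in wild type. It fell by 1.76 ± 0.13 on the log2 scale (3.39-fold lower, adjusted p = 0.000147), with ratios of -1.84, -2.04 and -1.40 on the arrays. IAA17 had ratios of -1.07 and -0.62 on arrays 2 and 3, while its spot on array 1 was left out as an outlier, so that its mean of -0.85 ± 0.14 (adjusted p = 0.00525) rests on 2 arrays. IAA14, which blocks the founding of lateral roots when stabilised, stood just outside the threshold at -0.47 ± 0.15 (adjusted p = 0.0501), with -0.65, -0.79 and 0.02 on the arrays. It was called under 7 of 12 alternative settings (adjusted p over all 12 from 2.80e-05 to 0.414), among them the fit without replicate 3. In that fit the SEs of genes on both arrays were nearly equal (0.133 for IAA14, 0.133 for IAA3 and 0.139 for IAA1). A call there followed mostly from the size of the ratio. IAA16 was at -0.09, -0.23 and 0.28 and was not called.

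Among IAA1 to IAA4, the clade of IAA3, IAA4 fell and IAA1 was close to the threshold. IAA4 had -0.50, -0.97 and -0.36 (mean -0.61 ± 0.12, adjusted p = 0.00871). IAA1 (AXR5) had -0.28, -0.81 and -0.14 (mean -0.41 ± 0.13, adjusted p = 0.0484). The call of IAA1 ended without replicate 1 and without replicate 2, where its ratio was -0.21. It also ended by the Feature Extraction log ratio and with outlier local backgrounds kept, and adjusted p over the 12 settings ran from 0.00169 to 0.534. IAA2 was not called, at -0.51, -0.32 and 0.35. It was called lower without replicate 3, where a call followed mostly from the size of the ratio.

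In the clade of IAA18, IAA26, IAA28 and IAA29, IAA29 fell most. IAA29 (AT4G32280), a target of phytochrome-interacting factors that responds to shade and warmth, had log2 intensities of 7.85, 7.19 and 8.00 in IBH1-SRDX, against 9.17, 8.84 and 9.20 in wild type. Its ratio was -1.39 ± 0.10 (2.62-fold lower, adjusted p = 0.000185), and the array with the lowest IBH1-SRDX value also had the lowest wild-type value. Over the 12 alternative settings the ratio of IAA29 ran from -1.97 to -1.02 (highest adjusted p = 0.0448). IAA28, which acts in the basal root meristem where lateral roots are specified, had -0.33, -0.49 and -0.26 (mean -0.36 ± 0.08, adjusted p = 0.0143), a call that ended without replicate 1. IAA18 and IAA26 were not called, at -0.21 ± 0.08 for IAA18 and -0.03 ± 0.08 for IAA26. IAA18 was below 0 on every array, whereas IAA26 had -0.06, 0.07 and -0.11.

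IAA8, IAA9 and IAA27 encode longer proteins than most Aux/IAA genes, and transcripts of IAA8 and IAA9 respond little to auxin. IAA27 fell on all arrays, by ratios of -0.50, -0.81 and -0.67 (mean -0.66 ± 0.09, adjusted p = 0.00174). IAA8 and IAA9 were not called, with 0.0008, -0.35 and -0.01 for IAA8 and 0.06, -0.08 and 0.24 for IAA9. A second probe of IAA8 gave 0.0035, -0.40 and 0.07, close to the first on each array.

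No gene of the clade IAA10 to IAA13 was called lower in limma, nor was any lower at an unadjusted p below 0.05. For so few genes that is not far from the share of all tested loci called lower (19.8%). IAA10 rose by 0.51 ± 0.08 (adjusted p = 0.00383), with 0.48, 0.41 and 0.65 on the arrays, a call that ended with outlier local backgrounds kept. IAA12 (BDL), which holds back ARF5 in the founding of the embryonic root, had 0.16, -0.18 and 0.35. Its close relative IAA13 had -0.37, -0.38 and 0.24. IAA13 was called lower without replicate 3, where a call followed mostly from the size of the ratio. IAA11 had 0.15, -0.03 and 0.13. The signs of these last 3 genes differed between arrays and none of them was called.

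IAA15 (AT1G80390) was the Aux/IAA gene with the highest ratio. Its log2 intensity was 7.08, 7.86 and 7.50 in IBH1-SRDX, against 6.20, 6.61 and 6.18 in wild type, where the probe was well above background on 1 of 3 arrays. The gene passed the filter through IBH1-SRDX alone, so the gap between the genotypes is no further support. The ratio was 1.15 ± 0.11 (adjusted p = 0.000379), set against a genotype in which the probe was mostly at background. It was 3.31 by the Feature Extraction log ratio and 3.17 by the deposited series table. With outlier local backgrounds kept it was 0.81 and the call ended.

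IAA20 and IAA30 to IAA34 lack the canonical degron or carry an altered one, so that in Arabidopsis they are degraded slowly or not at all in response to auxin. Of these 6 genes 2 were called lower, 1 higher and 3 were not called, which is near the shares of all tested loci (19.8% lower and 18.5% higher) for so few genes. Of the 23 with a canonical degron 11 were lower (47.8%), 2 higher and 10 were not called. The median ratio was -0.04 for the 6 genes and -0.36 for the other 23, a description that was not tested. On single arrays the medians were 0.03, 0.05 and -0.11 for the 6 genes and -0.35, -0.49 and -0.14 for the others, so that on array 3 they were nearly equal. IAA32, which with IAA34 takes part in the apical hook, fell with -1.11, -0.81 and -0.63 on the arrays (mean -0.85 ± 0.11, adjusted p = 0.0013), though its call ended with outlier local backgrounds kept (-0.51). IAA34 had -0.27, -0.52 and -0.12 (mean -0.30 ± 0.10, adjusted p = 0.0481), with IBH1-SRDX well above background on 2 of 3 arrays. The call of IAA34 ended with outlier local backgrounds kept, without replicate 1 and without replicate 2, where the ratio was -0.19 (adjusted p over 11 settings from 0.00462 to 0.875), and its ratio was -1.05 by the Feature Extraction log ratio. IAA31 had 0.57, 0.30 and 0.46 and rose by 0.44 ± 0.09 (adjusted p = 0.00731), a call that ended without replicate 1 and, at 0.26, with outlier local backgrounds kept. IAA20 had -0.06, 0.09 and -0.30, IAA30 0.13, 0.08 and 0.01, and IAA33 0.11, 0.02 and -0.11, and none of these was called.

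**Figure D2:**
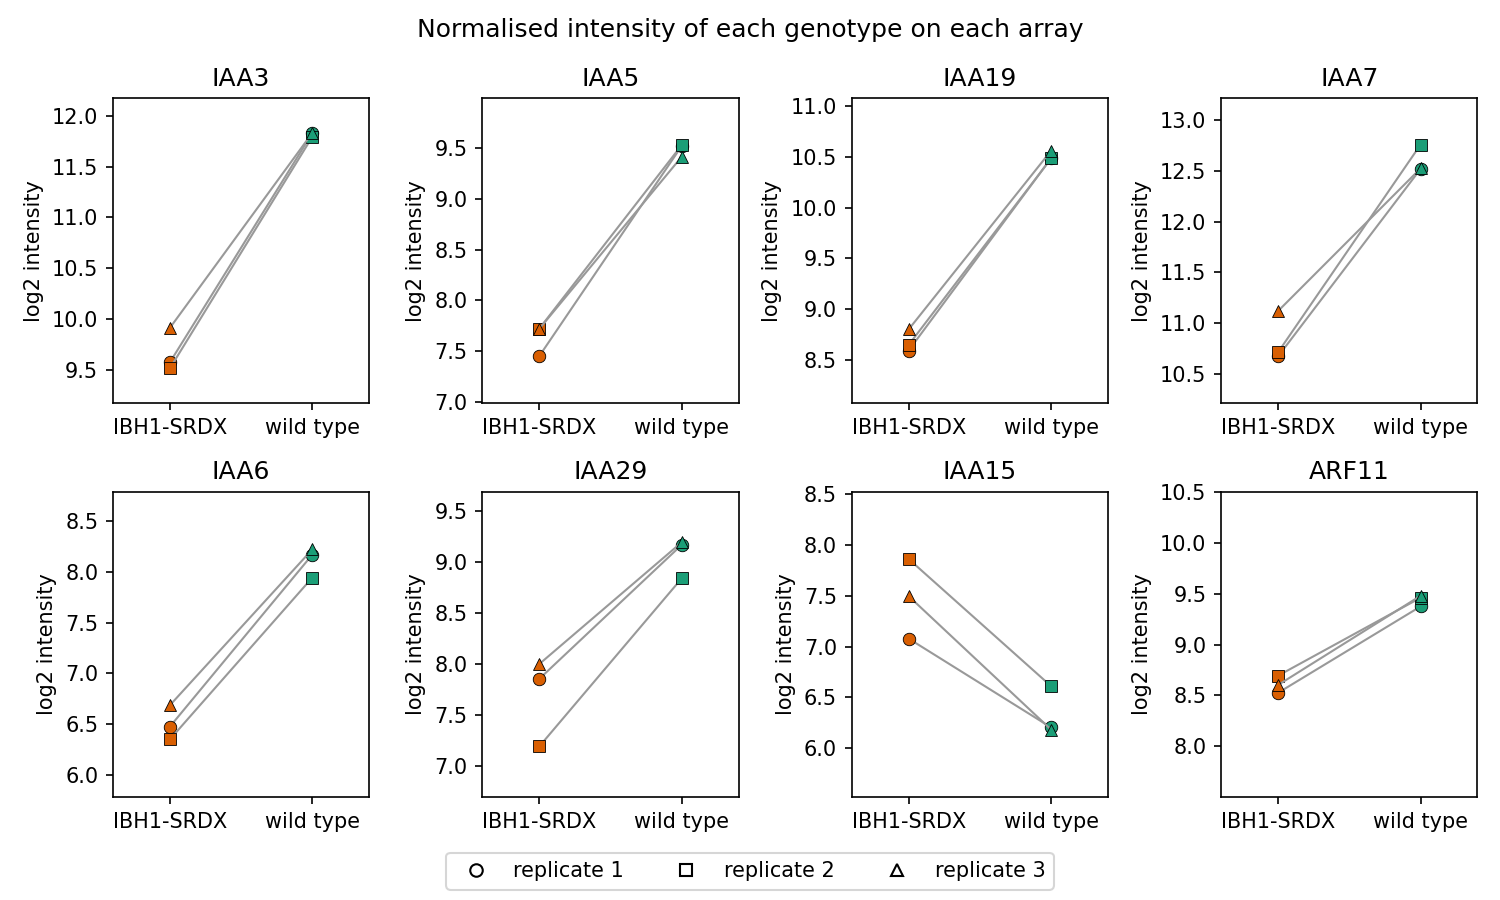
Normalised log2 intensity (y axis, each panel spanning the same range of log2 units) of IBH1-SRDX and wild type (x axis) for the 6 Aux/IAA genes at least 2-fold lower, for IAA15 and for ARF11, with lines joining the genotypes of 1 array. The 8 genes were picked from these data for their ratios, so the gap between genotypes in every panel is no further support. IAA15 is the panel that runs the other way.

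Some Aux/IAA genes lie next to each other in the genome, with 0 protein-coding genes between them in the TAIR10.1 gene table. IAA7 and IAA2 are such neighbours, and the log2 ratio of IAA7 minus that of IAA2 was -1.33, -1.72 and -1.75 on the 3 arrays (mean -1.60 ± 0.24, SD, n = 3). IAA3 and IAA17 both fell, with IAA3 minus IAA17 at -1.20 and -1.30 on arrays 2 and 3. IAA14 and IAA1 lay close together, with IAA14 minus IAA1 at -0.36, 0.03 and 0.16. Neighbouring genes thus had like ratios in 1 case and ratios far apart in the others, relative to the spread between arrays. No test of these differences was made.

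The ARF genes had smaller ratios. Of 15 genes, 5 were called lower (33.3%, against 19.8% of all tested loci), 0 higher and 10 were not called in limma, with 6 lower and 0 higher at an unadjusted p below 0.05. None changed by 2-fold or more in this fit. ARF11 was at -1.13 by the deposited series table, where the median of all loci was -0.15. Its ratio was -0.999 by the Feature Extraction log ratio and -0.62 with outlier local backgrounds kept. The 5 genes called lower were ARF11, ARF6, ARF18, ARF5 and ARF3. Without replicate 1 or without replicate 3 the count was 3 of 15, beside 2502 and 3221 of all tested loci called lower in those fits. All 5 calls ended when arrays were centred on their median and loess was left out, a fit in which a call followed from the size of the ratio alone.

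**Figure D3:**
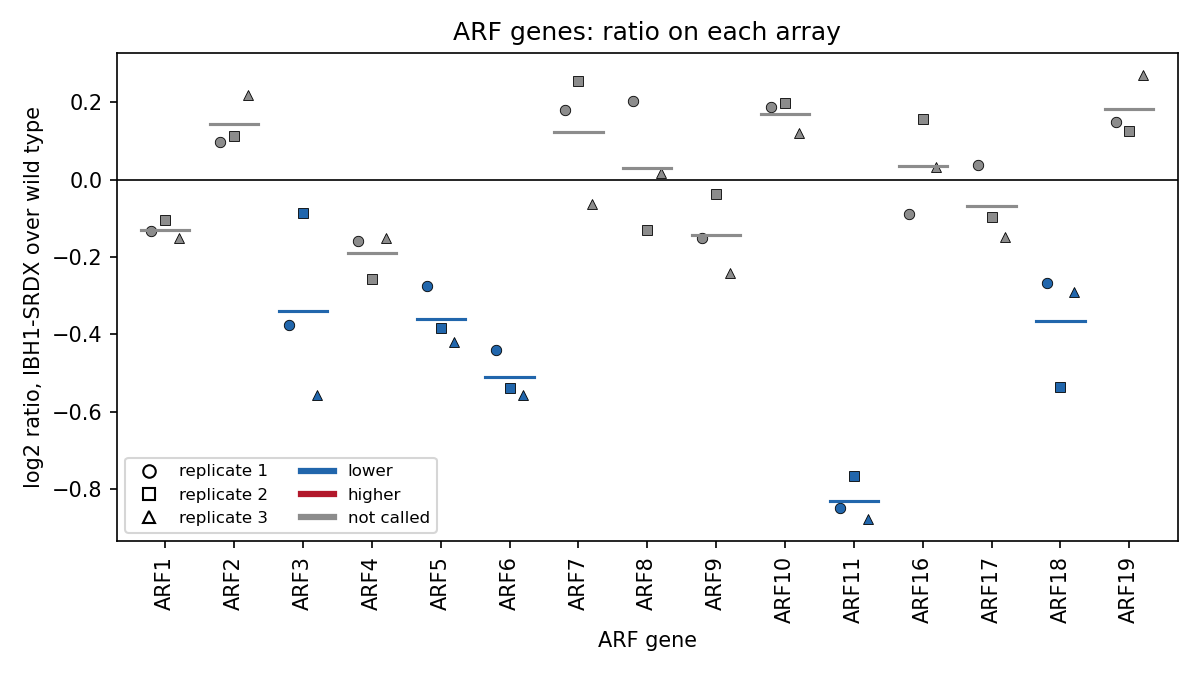
Log2 ratio of IBH1-SRDX over wild type (y axis) for each of the 15 ARF genes (x axis), with 1 marker for each array, a bar at the limma mean and colour for the call. ARF11 lies below the other genes on every array, between -0.88 and -0.77, and the 10 genes not called lie between -0.26 and 0.27.

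ARF5 to ARF8 and ARF19 have a glutamine-rich middle region and activate transcription, and 2 of these 5 were called lower, beside 19.8% of all tested loci. ARF6 (AT1G30330), which with ARF8 promotes hypocotyl elongation and the maturation of flowers, had log2 intensities of 10.97, 10.90 and 10.88 in IBH1-SRDX, against 11.41, 11.44 and 11.44 in wild type. Its ratios of -0.44, -0.54 and -0.56 had a spread of only 0.06 (SD, n = 3) around -0.51 ± 0.08 (1.42-fold lower, adjusted p = 0.00274). ARF5 (MONOPTEROS, AT1G19850), which founds the embryonic root and the vascular strands, had -0.28, -0.38 and -0.42 on the arrays (mean -0.36 ± 0.08, adjusted p = 0.0114), a call that ended without replicate 3. ARF8 had 0.20, -0.13 and 0.02, and ARF7, which drives tropic growth and lateral roots, had 0.18, 0.25 and -0.06. ARF19, its partner in lateral root formation, had 0.15, 0.13 and 0.27, and none of these 3 was called.

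Most other ARFs repress transcription, and 3 of these 10 were called lower. With so few genes neither count is far from the share of all loci. ARF11 (AT2G46530), of the clade of ARF1, ARF9 and ARF18, had log2 intensities of 8.52, 8.69 and 8.60 in IBH1-SRDX, against 9.37, 9.46 and 9.48 in wild type. Its ratio of -0.83 ± 0.08 (1.78-fold lower, adjusted p = 0.000395) was the lowest of the family. ARF11 is detailed for that ratio, so the gap between its genotypes is no further support. ARF18 had -0.27, -0.54 and -0.29 (mean -0.36 ± 0.09, adjusted p = 0.0168), a call that ended without replicate 1 and with outlier local backgrounds kept. ARF3 (ETTIN), which patterns the gynoecium and leaf polarity, had -0.38, -0.09 and -0.56 (mean -0.34 ± 0.11, adjusted p = 0.0415), a call that ended without replicate 1, without replicate 3, by the Feature Extraction log ratio and with outlier local backgrounds kept. ARF1, ARF4 and ARF9 were below 0 on every array but were not called, with means of -0.13 ± 0.08, -0.19 ± 0.08 and -0.14 ± 0.08.

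ARF2, a repressor that limits organ size and times ageing, was measured by 2 probes that differed. The brighter probe, which stood for the gene, had 0.10, 0.11 and 0.22 (mean 0.14 ± 0.08) and was not called. The dimmer probe had 0.42, 0.63 and 1.04, a mean of 0.70 ± 0.31 (SD, n = 3), and with the mean of the probes ARF2 was called higher at 0.42. Where each probe sits along the transcript was not analysed here.

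Small RNAs restrain several ARF transcripts. Of the miR167 targets, ARF6 fell and ARF8 stood near 0. The miR160 targets ARF10, ARF16 and ARF17 had 0 called lower or higher in limma (0 at an unadjusted p below 0.05), with a median of 0.03. For so few genes that is not far from the share of all tested loci called (19.8% lower and 18.5% higher). ARF10 had 0.19, 0.20 and 0.12, ARF16 had -0.09, 0.16 and 0.03, and ARF17 had 0.04, -0.10 and -0.15 on the arrays. Of the targets of tasiR-ARF, a trans-acting small RNA, ARF3 was called lower, ARF4 was at -0.19 and ARF2 at 0.14.

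Set side by side, the Aux/IAA genes spread more widely than the ARF genes, and the medians of the families differed little. The Aux/IAA ratios ran from -2.15 to 1.15 and the ARF ratios from -0.83 to 0.18, and the median size of a ratio, regardless of sign, was 0.41 for Aux/IAA and 0.17 for ARF, against 0.21 for all tested loci. At least 2-fold differences in either direction were seen in 24.1% of Aux/IAA genes and in 0 of 15 ARF genes, against 5.23% of all tested loci. The Aux/IAA share includes IAA6 and IAA15, which passed the filter only through the genotype where they are brighter. Which genes passed 2-fold also depended on the processing, since by the deposited series table ARF11 was at -1.13 and IAA32 at -1.34. The median ratio was -0.21 for Aux/IAA and -0.13 for ARF, with the median of all loci at -0.0003. On arrays 1, 2 and 3 the Aux/IAA median was -0.29, -0.38 and -0.12, and the ARF median -0.13, -0.10 and -0.15. The Aux/IAA median was thus the lower on arrays 1 and 2, while on array 3 it was higher by 0.03, so the order of the family medians did not hold on every array. No test was made between the families.

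**Figure D4:**
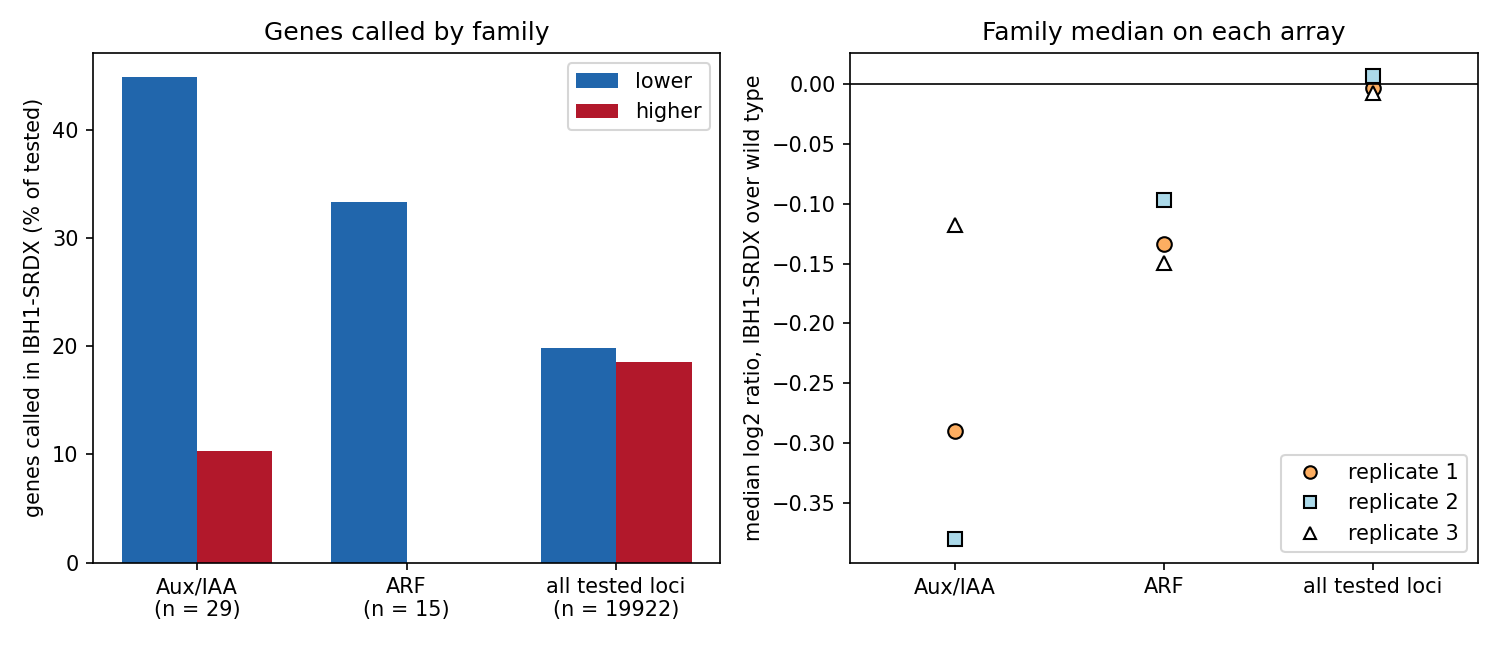
Left, percent of tested genes called lower and higher in IBH1-SRDX (y axis) for Aux/IAA (44.8% and 10.3%), ARF (33.3% and 0) and all tested loci (19.8% and 18.5%). Right, median log2 ratio of IBH1-SRDX over wild type (y axis) of the same 3 groups on each array, where the Aux/IAA median on array 3 lies near the ARF medians.

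Array 3 tended to hold the highest Aux/IAA ratios. Of 28 Aux/IAA genes measured on all arrays, 19 had their highest ratio on array 3 and 17 their lowest on array 2, whereas among the 15 ARF genes 3 were highest on array 3 and 4 lowest on array 2. The same counts were not made over all tested loci, so whether the pattern is particular to Aux/IAA genes cannot be told. IAA2, IAA13, IAA14 and IAA16 were negative on arrays 1 and 2 and positive on array 3. Without replicate 3, 16 Aux/IAA genes and 3 ARF genes were called lower, beside 16.2% of all loci, and the medians were -0.40 for Aux/IAA and -0.094 for ARF. SEs were nearly equal between genes in that fit, so its calls followed mostly from the size of the ratio. Array 2 is also the array with swapped dyes. With a dye term in the fit, 14 Aux/IAA and 6 ARF genes were called lower, beside 13 and 5 without it, while the share of all loci called lower was 24.1% with the term and 19.8% without it. The dye term itself was called for 0 of the 19922 loci, in a fit with fewer residual degrees of freedom.

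Genes of the machinery that works with the Aux/IAA and ARF proteins were also listed. Of 14 genes for auxin receptors, their ubiquitin ligase and the TOPLESS co-repressors, 1 was called lower, 1 higher and 12 were not called. That is 7.14% in each direction, against 19.8% lower and 18.5% higher over all tested loci. With so few genes neither count is far from the share in its direction. The receptor gene AFB1 fell, with -0.78, -0.71 and -0.27 on the arrays (mean -0.59 ± 0.12, adjusted p = 0.00752). AXR1, which activates the ubiquitin ligase, was at 0.28 ± 0.08 (adjusted p = 0.0319), a call that ended without any 1 of the replicates. The receptor gene TIR1 had 0.28, -0.03 and 0.53 and TPL -0.10, 0.30 and -0.11, and neither was called. Of 4 LBD genes, which in roots are switched on by ARF7 and ARF19, LBD18 was not well above background in either genotype. The others, LBD16, LBD17 and LBD29, lay between -0.04 and -0.02, with 0 called in limma and 0 at an unadjusted p below 0.05. That count is also not far from the shares of all tested loci for so few genes.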

How the data were processed

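Agilent Feature Extraction 9.1.3.1, named in the submitters' processing notes, made the scanner files. They give each spot's median intensity and local background in both dyes, per the file headers. The same deposited files carry a log10 ratio (red over green) and spot flags. A series-wide table deposited by the authors holds natural log ratios of IBH1-SRDX over wild type. Its slope on the scanner ratio was 1.00 and its constant -0.0929 on each array, of unknown origin, with column medians of 0.00195, -0.225 and 0.00455.

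Local backgrounds marked as outliers were replaced by the median of the unmarked ones, a choice made after data had been seen. Intensities were corrected by normexp (offset 50) and log ratios normalized by loess, in which control spots had weight 0. The mean signals that are usual in this step were replaced by medians of pixels. Control spots and outlier spots (91 to 189 per array) were left out, a probe's spots were averaged, and each locus took its brightest probe. limma 3.58.1 (R 4.3.3, data.table version 1.17.8) tested the log2 ratio against 0 with lmFit and eBayes. Residual degrees of freedom were 2 and the prior added 4.88, so each call leans on the spread pooled over genes. The smallest p of an exact two-sided sign-flip test on 3 arrays is 0.25. The fit was tested on simulated data with known changes. Channel intensities were scaled by Aquantile. With the dyes swapped on 1 of 3 arrays, 33.3% of a dye bias remains in a mean. Alternatives covered the ratio's source, background, normalization, dye, filter, probe rule and single replicates.

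All 44 loci were found in TAIR10.1, 36 of them under the same symbol. Every member was named, with values on each array for those called at a log2 size of 0.58 or more, for called ARFs and for members of mixed sign. Members and lists were chosen with earlier results of these data known. Clades and degron groups follow general knowledge, since no sequences were used here.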

Additional observations from a re-analysis of the deposited data

How the results depend on the processing

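Over up to 12 alternatives for each of the 44 genes, no called ratio changed sign. IAA3, IAA5, IAA7, IAA19 and IAA29 were called under all 12, while none of the 5 ARF calls and none of the 3 higher Aux/IAA calls held under all. Median centring in place of loess left 6 Aux/IAA genes called lower, 1 higher and 0 ARF genes lower, beside 674 lower and 591 higher over all loci (3.38% and 2.97%), and gave an ARF median of -0.24, or -0.15 relative to the median of all loci. With outlier local backgrounds kept, 9 Aux/IAA genes were lower and 0 higher, 3 ARF genes were lower, and 1918 loci were lower and 1141 higher. The deposited series table moved the median of all loci by -0.15, with 6369 lower and 2480 higher beside 3949 and 3691, 8 ARF genes lower and medians of -0.40 for Aux/IAA and -0.25 for ARF. Relative to that shift the medians were -0.26 and -0.11. With the mean of probes 1 ARF gene (ARF2) was higher. Leaving out 1 replicate in turn gave 10 to 16 Aux/IAA genes lower and 2 to 3 higher, 3 to 5 ARF genes lower, 2502 to 4331 loci lower and 2331 to 3902 higher, and medians of -0.40 to -0.18 (Aux/IAA) and -0.14 to -0.094 (ARF). Both genotypes above background left 26 Aux/IAA genes. Ratios of IAA6, IAA15, IAA34 and IAA31 (0.74) were larger by the Feature Extraction log ratio, as were those of IAA32 (-1.34) and ARF18 (-0.65) in the series table. The causes were not tested. Every fit is paired, since each log ratio sets both genotypes of 1 replicate against each other on 1 array, and no further replicate block could be fitted.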
